A study of Mus musculus with 33 samples.

Results

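The 10 splice events described here belong to 4 genes: Josd2, Huwe1 and Fbxl12, which act in the ubiquitin pathway, and Xaf1, a regulator of cell death. The members were chosen by gene symbol, as every event of these 4 genes in the deposited splicing tables, and they account for 10 of 549 events and 4 of 376 genes. Ubiquitin is a small protein that is attached to other proteins through a chain of activating, conjugating and ligating enzymes, and a chain of ubiquitin can send its target to the proteasome for breakdown. Ligases choose the target, and deubiquitinases remove the tag again. In muscle this pathway is best known for the turnover of contractile proteins during atrophy.

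The series measured RNA from mice of the FVB strain in which the CTG repeat of Dmpk, the gene expanded in myotonic dystrophy type 1, was lengthened to 480 repeats. Expanded CUG repeats are known to bind MBNL splicing regulators and keep them from their target RNAs. Wild-type mice (Dmpk+/+) were compared with 480/480 mice, which carry 2 expanded alleles, in tibialis anterior (TA, a lower leg muscle), in myotubes differentiated in culture and in choroid plexus, the brain tissue that makes cerebrospinal fluid, and with +/480 mice, which carry 1 expanded allele, in myotubes. Each of the 7 groups has 3 labelled libraries of total RNA depleted of ribosomal RNA, and the labels give no age or treatment. The mouse numbers show that all tissues of a genotype came from 1 set of 3 mice, and values of different tissues are therefore not independent. The +/480 TA and choroid plexus groups and the 170/170 and wild-type myotubes of the C57/BL6 strain, 12 libraries in 4 groups, were not analysed here.

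With 480/480, the tables list 81 events in TA, 243 in myotubes and 115 in choroid plexus, and with +/480 they list 110 in myotubes. Inclusion is the percentage of spliced transcripts that hold an exon, or the longer form of one, as the authors estimated it for each library, and a change is expansion minus wild type in percentage points. Each listed event had passed the authors' selection (an average of at least 5 reads, FDR at most 0.05, change of at least 10 points), and "rose" and "fell" are used for events that passed it. An event that a table does not list has no value here, which is no sign that it was unchanged. The 480/480 choroid plexus group has 2 values per event for its 3 labelled libraries, and which library is missing is not stated. Library values are given in the order of the deposited lists, which carry no replicate number. The tables hold no expression levels, so the tissue labels could not be checked against marker genes, and in bulk tissue a shift of splicing within a cell type and a shift in the mix of cells cannot be told apart.

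The sequences below show the splice sites and exons that the results turn on. They were read from GENCODE M21 transcripts (GRCm38/mm10) and run 5′ to 3′ on the gene's strand. For Josd2, capitals mark the 2 bases that follow the short first exon, at chr7:44468150-44468179 (+), and the 2 bases that precede the 58-base form of its alternative exon, at chr7:44468340-44468369 (+). For Fbxl12, capitals mark the 2 bases that follow the short form of the exon, at chr9:20644175-20644204 (-), and the start codon in the part of the long form that is coding, at chr9:20642204-20642289 (-). For Xaf1, the 196-base exon at chr11:72304666-72304861 (+) has no capitals, and capitals in the 89-base exon at chr11:72306564-72306652 (+) mark the stop codon of the transcript Xaf1-201.
Josd2 short first exon end: tgcgaaagcgGTcggtcccggggagcagaa
Josd2 58-base form start: gggaagtctttcgttgctAGgcgaccagaa
Fbxl12 short form end: tcttagcaagGTaagcatatattgactcaa
Fbxl12 long form coding part: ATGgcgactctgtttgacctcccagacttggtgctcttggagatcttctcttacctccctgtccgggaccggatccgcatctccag
Xaf1 196-base exon: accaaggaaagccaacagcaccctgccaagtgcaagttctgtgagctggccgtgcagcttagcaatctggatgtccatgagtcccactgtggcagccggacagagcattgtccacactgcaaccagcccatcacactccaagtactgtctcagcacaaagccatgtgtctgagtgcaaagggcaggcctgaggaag
Xaf1 89-base exon: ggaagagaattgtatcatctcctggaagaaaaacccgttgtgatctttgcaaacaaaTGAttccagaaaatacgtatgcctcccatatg

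Across the 10 events, 2 rose and 8 fell, and 6 of the 8 that fell are in Josd2. The Huwe1 exon and the Xaf1 exon listed in TA rose, and the Josd2 exon, the long form of Fbxl12 and the Xaf1 exon listed in choroid plexus fell. In all 10 events the libraries of the groups did not overlap. That count is set by the choice of events, since the authors selected them on this contrast: over all listed events the groups did not overlap in 71.6% for TA, 89.7% for 480/480 myotubes, 80.9% for +/480 myotubes and 80.0% for choroid plexus. Over all events listed for TA, 58.0% were higher with the expansion, against 39.1% for 480/480 myotubes, 50.0% for +/480 myotubes and 33.0% for choroid plexus. The plot of library values shows the spread behind each mean.

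**Figure D1:**
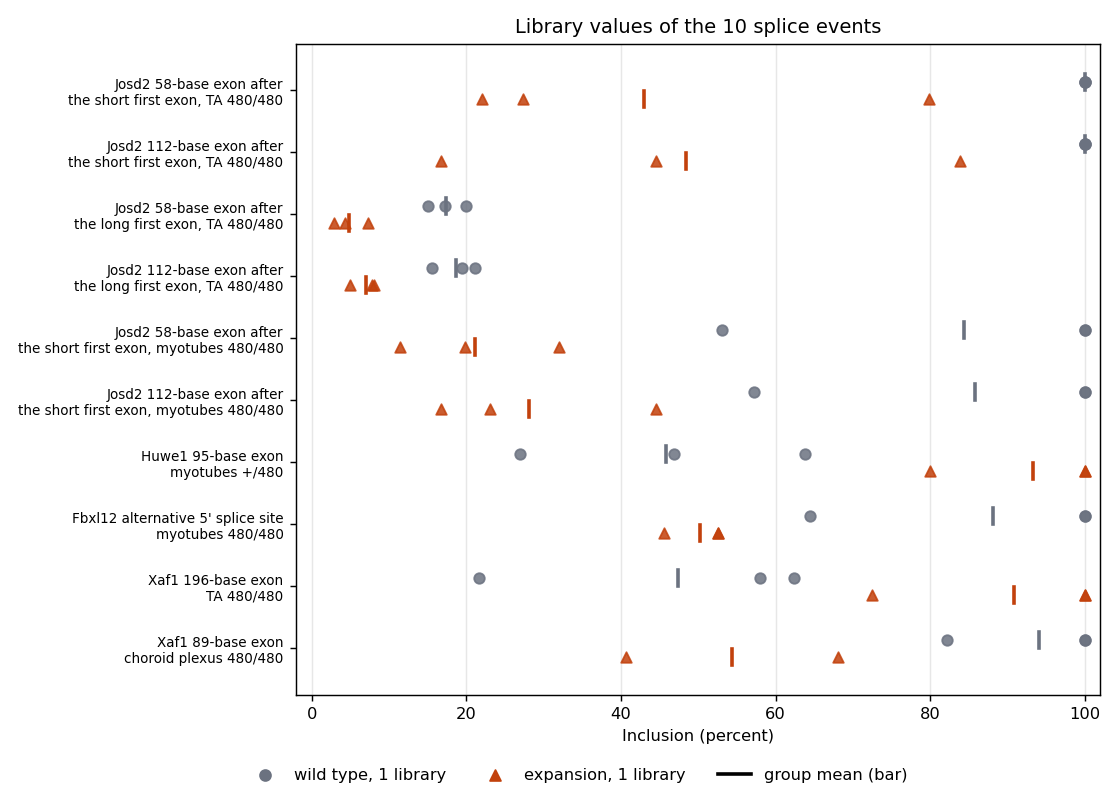
Inclusion (percent, x axis) of the 10 events of Josd2, Huwe1, Fbxl12 and Xaf1, with 1 point per library (grey circles wild type, orange triangles expansion, equal values drawn on top of each other) and a bar at each group mean. The groups are apart in all 10 events, and 1 library often lies far from the others, as at 79.8% in 480/480 TA for the 58-base Josd2 exon.

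Josd2 is a deubiquitinase of the Josephin family, whose best known member is the ataxin-3 protein. Its alternative exon lies between the first exon and the exon that holds the start codon (chr7:44468807-44468969, +), and it is listed in 2 forms with the same end: a 58-base form (chr7:44468360-44468417) and a 112-base form (chr7:44468306-44468417). The starts of these forms are 54 bases apart. All 9 protein-coding Josd2 transcripts share the coding start at base 44468824 of chromosome 7, after the alternative exon, so the exon is 5′ untranslated sequence (5′ UTR). The first exon also ends at 2 places, 31 bases apart, called here the short and the long first exon. The intron before the 58-base form is 200 bases long after the short first exon and 169 after the long one, and the intron behind the exon is 389 bases long. Neither form holds an ATG, the start codon triplet, while 71.8% of 735 annotated internal exons of 58 bases and 88.5% of 1298 of 112 bases hold one. Those exons include coding ones, so they are not a like set for a 5′ UTR exon.

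After the short first exon, inclusion of the 58-base form in TA was 100%, 100% and 100% in the wild-type libraries and 22.0%, 79.8% and 27.3% in the 480/480 libraries. Every 480/480 library was below every wild-type one, and the second library of the list was much nearer to wild type than the other 2. The mean fell from 100% ± 0 to 43.0% ± 32.0 (SD, n = 3 each), a change of -57.0 points, the 6th by size of the 81 events in TA, with an FDR of 7.44e-05 in the authors' deposited table. Without the second 480/480 library, the change in TA was -75.4 points.

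The 112-base form after the same first exon behaved alike in TA. Its inclusion was 100% in each wild-type library and 16.7%, 83.9% and 44.5% in the 480/480 libraries, and again the second library was the highest. The mean of 48.4% ± 33.8 (SD, n = 3) lay 51.6 points under wild type, with an FDR of 0.000162 in the authors' deposited table. The 2 forms are not independent measurements, because they come from the same libraries and share the junction behind the exon as well as the junction that skips it.

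In myotubes the same exon was listed after the short first exon. Inclusion of the 58-base form was 100%, 53.0% and 100% in wild-type myotubes and 11.4%, 19.8% and 32.0% in 480/480 myotubes. Here the lone library was a wild-type one, and the 3 expansion libraries, from 11.4% to 32.0%, were all below it. The mean fell from 84.3% ± 27.1 to 21.1% ± 10.4 (SD, n = 3 each), a change of -63.3 points and the 3rd by size of 243 events, with an FDR of 0.00431 in the authors' deposited table. The 112-base form read 100%, 57.2% and 100% in wild type and 16.7%, 23.1% and 44.5% in 480/480, a fall of 57.6 points that was the 4th by size, with an FDR of 0.0110 in the authors' deposited table. Every expansion library was below every wild-type library for this form too. Josd2 is not listed in +/480 myotubes or in choroid plexus.

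For the 112-base form, the 480/480 values at places 1 and 3 of the list are the same in TA and in myotubes to every deposited digit, 16.7% and 44.5%. Over the 3 events that both tables list, 2 of 7 expansion values under comparison were equal in this way, and both are in Josd2. Between the 480/480 and +/480 myotube tables, 0 of 131 values at the same place were equal. The 58-base values of the same libraries differ between the tissues, 22.0% against 11.4% at place 1 and 27.3% against 32.0% at place 3. Whether the 112-base values of TA and myotubes are fully separate measurements cannot be told from the tables.

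After the long first exon, most transcripts skipped the exon already in wild type, and only TA lists the event. The 58-base form read 15.0%, 20% and 17.2% in wild type and 4.3%, 7.3% and 2.9% in 480/480. These libraries were close together within each genotype and the groups did not overlap. The mean fell from 17.4% ± 2.51 to 4.83% ± 2.25 (SD, n = 3 each), a change of -12.6 points, the 75th by size in TA, with an FDR of 0.0198 in the authors' deposited table. The 112-base form fell from 18.7% ± 2.88 to 6.97% ± 1.71 (SD, n = 3 each), with an FDR of 0.0322 in the authors' deposited table. In wild-type TA the 58-base form was thus listed at 100% after one end of the first exon and at 17.4% after the other. Its direction in 480/480 was downward after both. The events after the 2 ends come from the same libraries and share the exon and the junction behind it. Reads there do not tell which first exon was used, so these values are not separate measurements. The plot of the Josd2 exon sets these 4 events side by side.

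**Figure D2:**
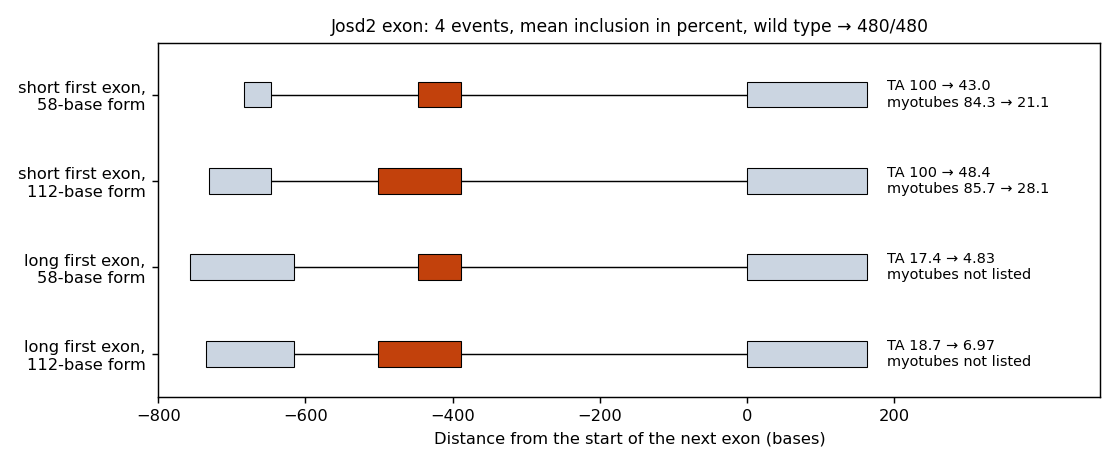
Exons of the 4 Josd2 events drawn to scale (x axis, distance in bases from the start of the next exon), with the alternative exon in orange, its flanking exons in grey and introns as lines, and the mean inclusion (percent) in wild type and 480/480 at the right. Inclusion in wild-type TA was 100% after the short first exon and 17.4% or 18.7% after the long one.

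Whether Josd2 differs between muscle tissue and cultured muscle cells was asked of the 58-base form after the short first exon. The 3 tests were adjusted together. This form has the lowest FDR of the Josd2 events in each tissue. The authors had selected it in both tissues for its change in 480/480. A change in each was therefore given by the choice, and the difference of changes is not free of that selection. Mean wild-type inclusion was 15.7 points higher in TA than in myotubes, a gap made by the 1 myotube library at 53.0%. The other wild-type values are all 100%, so every relabelling gives the same absolute difference, the exact permutation p could only be 1 (adjusted p = 1, n = 3 each), and the test says nothing on this level. In 480/480 it was 22.0 points higher in TA (exact two-sided permutation p = 0.4, adjusted p = 1, n = 3 each), in a test that cannot go below 0.10. The change differed by 6.3 points, -57.0 in TA and -63.3 in myotubes (exact permutation of tissue labels within genotype, p = 0.7, adjusted p = 1, smallest possible p 0.05 with the tied wild-type values). The tissues of a genotype come from the same mice, which these tests ignore because the lists do not name the mouse of a value. The sign of this last difference turned without the second 480/480 TA library, to -12.1 points, and without either wild-type myotube library at 100%, to -1.53 points. The tests did not set the 480/480 difference or the difference of changes apart from relabelled values, which does not show that the tissues are alike. The 480/480 difference of 22.0 points lay between the SDs of its groups, 10.4 in myotubes and 32.0 in TA. TA and 480/480 myotubes list only 3 events in common, of which 2 are these forms of the Josd2 exon and both fell in each.

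Huwe1 is a very large ubiquitin ligase of the HECT type, a family that takes ubiquitin onto itself before passing it to the target. It is listed in +/480 myotubes alone, at a 95-base exon (chrX:151804446-151804540, +) between exons at chrX:151803658-151803802 and chrX:151806272-151806407. All 3 protein-coding Huwe1 transcripts share a coding start farther downstream, at base 151835248, so this exon too is 5′ UTR. Inclusion was 46.9%, 26.9% and 63.8% in the wild-type libraries and 100%, 79.9% and 100% in the +/480 libraries. Every +/480 library was above every wild-type library, with the second library the lowest of each group. The mean rose from 45.9% ± 18.5 to 93.3% ± 11.6 (SD, n = 3 each), by 47.4 points, the 13th by size of 110 events, with an FDR of 0.00156 in the authors' deposited table. The event is not listed for 480/480 myotubes, which were compared with the same wild-type libraries, which leaves no value with 2 expanded alleles to set beside it.

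Fbxl12 is an F-box protein, the subunit of an SCF ubiquitin ligase that binds the target. Its event in 480/480 myotubes is a choice between 2 ends (alternative 5′ splice sites) of 1 exon on the minus strand of chromosome 9: a long form of 2095 bases (chr9:20642204-20644298) and a short form of 104 bases (chr9:20644195-20644298). The next exon lies at chr9:20642024-20642096. Use of the long form was 100%, 64.5% and 100% in wild type and 52.5%, 45.5% and 52.5% in 480/480. Every 480/480 library was below the lowest wild-type one, and the second library was the lowest of each group. The mean fell from 88.2% ± 20.5 to 50.2% ± 4.04 (SD, n = 3 each), by 38.0 points, the 32nd by size of 243 events, with an FDR of 0.00836 in the authors' deposited table.

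The 1991 bases that the long form holds beyond the short form include an annotated start of translation. In Fbxl12-206, the annotated transcript with the long form, coding begins at base 20642289 and the last 86 bases of the form are coding, as printed above. In Fbxl12-204, the coding transcript with the short form, the annotated coding start lies in a later exon, at base 20639198. Of the 8 protein-coding Fbxl12 transcripts, 4 have the later start, 3 start at base 20642289 and 1 has another. Only Fbxl12-206 is annotated with the long form itself, so the start at base 20642289 is not particular to that form. The tables give splicing only, and no protein was measured.

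Xaf1 binds the caspase inhibitor XIAP and is known to counter its block of cell death, and it is also known as a gene induced by interferon. It was listed in 2 tissues, at different exons of chromosome 11. In TA the event is a 196-base exon (chr11:72304666-72304861, +). Inclusion was 58%, 21.7% and 62.4% in wild type and 100%, 72.4% and 100% in 480/480. Every 480/480 library was above every wild-type library, and the second library of each list was the lowest. The mean rose from 47.4% ± 22.3 to 90.8% ± 15.9 (SD, n = 3 each), by 43.4 points, the 17th by size of 81 events, with an FDR of 0.0198 in the authors' deposited table.

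In choroid plexus the event is the 89-base exon (chr11:72306564-72306652, +), which is the downstream neighbour of the 196-base exon in the TA event. Inclusion was 100%, 82.1% and 100% in wild type and 40.7% and 68.1% in 480/480. Both 480/480 libraries were below the lowest wild-type library. The mean fell from 94.0% ± 10.3 (SD, n = 3) to 54.4% ± 19.4 (SD, n = 2), by 39.6 points, the 23rd by size of 115 events, with an FDR of 0.0156 in the authors' deposited table. Both events start from the same upstream exon (chr11:72303327-72303462). Since the tables share no Xaf1 event, the planned comparison of TA with choroid plexus was not made for a common exon, and the opposite signs, +43.4 and -39.6 points, belong to different exons.

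The annotated transcripts place the 2 Xaf1 exons in different combinations. Xaf1-204, a protein-coding transcript with 819 coding bases, holds both exons, and together they add 285 bases, a multiple of 3. Xaf1-201, annotated as a target of nonsense-mediated decay with 225 coding bases, joins the upstream exon straight to the 89-base exon, in which its reading frame meets the stop codon shown in capitals above. Xaf1-202 and Xaf1-205, with 534 and 623 coding bases, hold neither exon. The TA event therefore sets junctions that Xaf1-204 holds against a junction that Xaf1-201 holds. The choroid plexus event sets the exon chain of Xaf1-201 against a junction that skips the 89-base exon. Xaf1-202 and Xaf1-205 hold the shared upstream exon without the 89-base exon. Which full transcripts the reads came from is not given by single events.

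**Figure D3:**
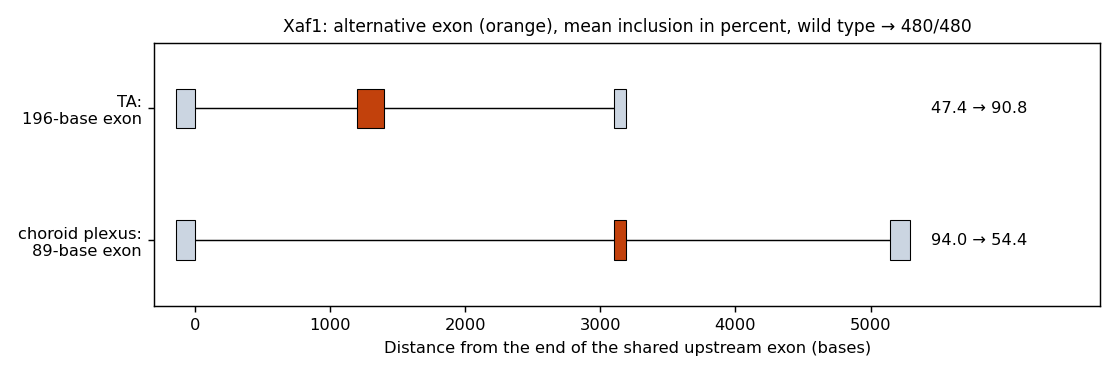
The Xaf1 events of TA and choroid plexus drawn to scale (x axis, distance in bases from the end of their shared upstream exon), with the alternative exon in orange, its flanking exons in grey and introns as lines. Mean inclusion in wild type and 480/480 is at the right: 47.4% and 90.8% for the 196-base exon in TA, 94.0% and 54.4% for the 89-base exon in choroid plexus.

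MBNL proteins are known to bind RNA at short YGCY motifs, where Y is either pyrimidine, and all 4 spellings (Y as C or T) were searched on the transcript strand of the exons. The motif reads RGCR on the other strand, which was not searched, and matches may overlap. The 58-base Josd2 form has 1 match, the 112-base form 2, the Huwe1 exon 1 and each Xaf1 exon 1. A match is common: 45.2% of 735 annotated internal exons of 58 bases hold at least 1, as do 77.8% of 1298 of 112 bases, 68.0% of 1216 of 95 bases, 68.1% of 1185 of 89 bases and 92.5% of 492 of 196 bases. For exons of 196 bases the median is 3 matches. The introns beside the exons were not searched.

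Both Josd2 events after the long first exon were among the smallest changes in TA, the 75th and 77th of 81, with a larger SD of 2.51 and 2.88 points. The other 8 member events were larger in change and in spread than the median event of their comparison. The median size of the members was 43.4 points over 5 events in TA, beside 28.8 over all listed events. It was 57.6 over 3 events in 480/480 myotubes beside 21. In TA all but the Xaf1 event are readings of the Josd2 exon, as are all but the Fbxl12 event in 480/480 myotubes. The medians of size and spread there rest on few separate exons, in members chosen with results known. The single events in +/480 myotubes (47.4) and choroid plexus (39.6) stood beside medians of 23.8 and 25.2. The larger SD of an event's groups had a median of 22.3 points for the members in TA and 24.7 in 480/480 myotubes, against 15.9 and 7.07 over all events. Of the 59 library values of the members, 18 were exactly 100% (30.5%), compared with 680 of 3179 (21.4%) over all events. The read depth of an event is not given beyond the authors' average of 5, so no counting interval can be set on these values.

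**Figure D4:**
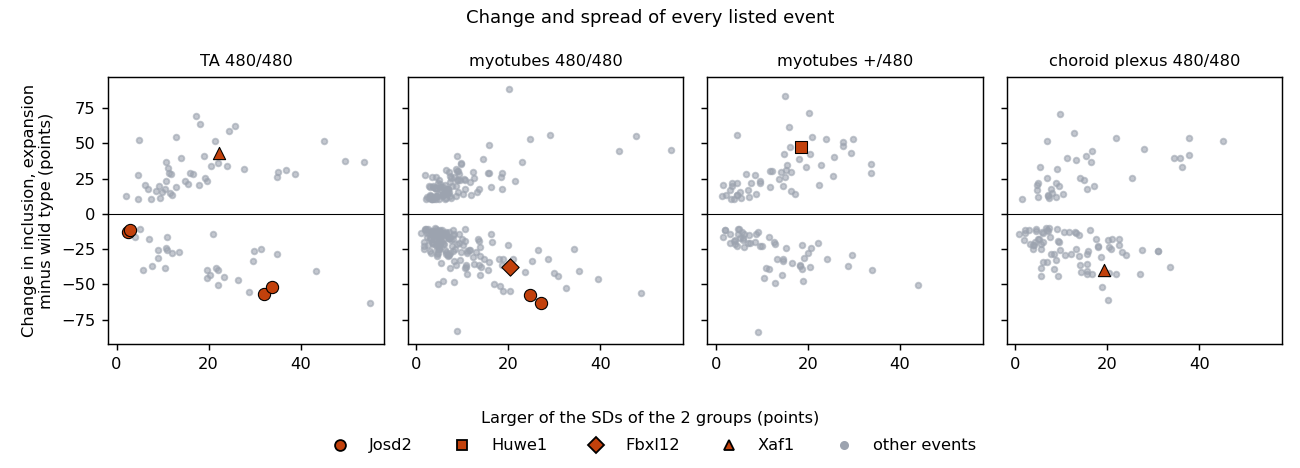
Change in inclusion (expansion minus wild type, points, y axis) against the larger SD of the groups (points, x axis) for every listed event in the 4 comparisons, with the members in orange and all other events in grey. In 480/480 myotubes the Josd2 and Fbxl12 events lie at changes of -63.3 to -38.0 points with SDs above 20 points, where most other events have SDs under 10; the empty band around 0 is the authors' minimum change of 10 points.

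The second wild-type value was the lowest of its group in Josd2 and Fbxl12 in 480/480 myotubes, Huwe1 in +/480 myotubes and Xaf1 in TA and choroid plexus. It was the highest in both Josd2 events after the long first exon in TA, and tied at 100% with the others in both TA events after the short first exon. Over all events with any spread, the second value was the lowest alone in 34.3% of 283 myotube events, 38.4% of 73 TA events and 38.6% of 101 choroid plexus events. The second value is a different library in TA, myotubes and choroid plexus, and the lists do not name its mouse. The part of the second value in the changes was not tested beyond leaving it out. Without it the change was -78.9 points for the 58-base Josd2 form in myotubes, -49.8 for Fbxl12, 38.0 for Huwe1, 30.6 for Xaf1 in TA and -45.6 for Xaf1 in choroid plexus.

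The events whose library values were most like those of each member were found by the root mean square (RMS) difference of the values at the same place of the list, over 6 libraries (5 in choroid plexus). For the 58-base Josd2 form after the short first exon they were Tex9 (14.2 points), Rnpepl1 (14.6) and RP24-162O18.3 (18.6) in TA, and Rusc1 (14.9), RP23-203A12.2 (16.1) and Rilpl1 (17.5) in myotubes. After the long first exon, a retained intron of Trim28 came within 2.45 points of the 58-base form and 3.80 of the 112-base form, and Efr3b followed at 11.4 and 12.2. The third place there was held by Hivep2 (13) for the 58-base form and Wdr83 (13.2) for the 112-base form. Both moved the other way in 480/480, Hivep2 rising from 4.37% to 15.0% and Wdr83 from 4.10% to 15.6%. Their RMS differences are larger than the Josd2 changes of -12.6 and -11.7 points, so they are near in level only. The 112-base form after the short first exon had Rnpepl1 (11.8), Tex9 (17.8) and Tada3 (18.4) in TA, and the same genes as the 58-base form in myotubes, at 11.7 to 16.9 points. For Huwe1 they were Robo2 (8.52), Hps1 (11.8) and Fgfr3 (14.9). For Fbxl12 they were Ralgapa1 (10.8), Zcchc2 (10.9) and Adgrl2 (11.9). Xaf1 had Vkorc1l1 (13.8), Lrp3 (14.1) and Ptcd3 (15.1) in TA, and Slx4ip (5.04), Gm45844 (5.21) and Zc3h12b (5.25) in choroid plexus. Tex9 read 100% ± 0 in wild-type TA and 36.5% ± 55.0 in 480/480 TA, and Rnpepl1 read 100% ± 0 and 60.2% ± 19.6 (SD, n = 3 each).

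Other genes of the pathway were read from a list of 705 annotated genes of ubiquitin enzymes, ligase subunits, deubiquitinases and proteasome subunits, which includes Josd2, Huwe1 and Fbxl12 and was chosen with results of these data known. Of these, 2 were among the 69 genes listed for TA, 8 among 169 for 480/480 myotubes, 3 among 88 for +/480 myotubes and 7 among 106 for choroid plexus. That makes 16 different genes among the 376 in all. The share of all annotated genes that the list makes up is not given, so these counts are not read as many or few. TA had 5 such events (0 higher, 5 lower), 480/480 myotubes had 9 (1 higher, 8 lower), +/480 myotubes had 3 (1 higher, 2 lower) and choroid plexus had 7 (2 higher, 5 lower). In TA all but the Trim28 intron are readings of the Josd2 exon in the same libraries, so the 5 are not separate events. Both Josd2 forms are also among the 9 in 480/480 myotubes. Over all events the share that was lower was 42.0%, 60.9%, 50.0% and 67.0% in the same order. The median size over the list, again in that order, was 12.6, 21.1, 40.0 and 17.7 points, and the TA median is itself a Josd2 event. No test was made of the list, since the tables do not hold the events that were examined and not selected.

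Among ligases and their subunits in myotubes, the F-box gene Fbxo31 fell with both genotypes. Its 87-base exon read 32.2%, 24.7% and 20.7% in wild type, 14.7%, 12% and 13.1% in +/480 and 2.7%, 4.3% and 7.4% in 480/480. The 3 genotypes did not overlap, with 480/480 the lowest and +/480 between, although both contrasts share the wild-type libraries. The difference between +/480 and 480/480 was not tested. Trim55, a muscle RING-finger protein of the sarcomere, fell in 480/480 from 52.6% ± 3.26 to 32.4% ± 3.40 at a 288-base exon (SD, n = 3 each). Dcaf6, a substrate adaptor of a cullin ligase, fell from 23.3% ± 6.60 to 9.43% ± 2.30 (SD, n = 3 each).

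Atg7, an activating enzyme for the ubiquitin-like proteins of autophagy, showed a 53-base exon at 100%, 100% and 67.2% in wild-type myotubes and at 54.0%, 28.1% and 20.7% in 480/480. The groups did not overlap in 480/480, and in +/480 (80.4%, 12.8% and 54.0%) they did. The value of 54.0% stands at place 1 in 480/480 and at place 3 in +/480. The proteasome subunit gene Psma4 fell in 480/480 myotubes from 30.4% ± 4.37 to 17.3% ± 4.28 at an 85-base exon (SD, n = 3 each).

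In choroid plexus the listed genes were mostly others. The deubiquitinase genes Otud7b and Usp48 moved in opposite directions: Otud7b fell from 25.2% ± 5.13 to 7.55% ± 2.76, and Usp48 rose from 89.4% ± 1.53 to 100% ± 0 (SD, n = 3 and 2). Usp40 also fell, with overlapping groups: its libraries read 90.6%, 100% and 100% in wild type and 62.8% and 94.6% in 480/480. The proteasome subunit gene Psma3 fell from 100% ± 0 to 89.5% ± 4.45, and Trim34a at mutually exclusive exons from 91.8% ± 14.3 to 50.5% ± 10.8 (SD, n = 3 and 2). The F-box gene Fbxo17 read 100%, 100% and 59.9% in wild type and 61.4% and 57.7% in 480/480, with overlap. Of a second list of 42 genes of apoptosis, Xaf1 was the 1 gene with an event, in TA and in choroid plexus.

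**Figure D5:**
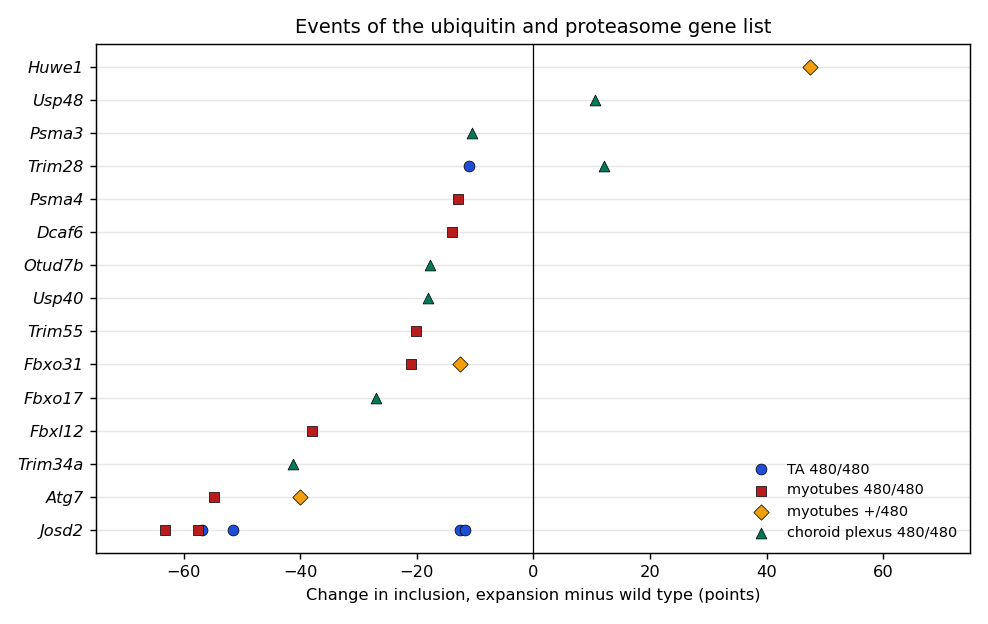
Change in inclusion (expansion minus wild type, points, x axis) of each event of 15 of the 16 genes of the ubiquitin and proteasome list (y axis), with 1 mark per event, shaped and coloured by comparison. Josd2 has the most marks, between -63.3 and -11.7 points, and Huwe1 has the highest, at 47.4.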

How the data were processed

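Per the submitters' processing notes, the reads passed through FastQC and were mapped to mm10 by STAR. Versions and the event caller are not given in the sources used here. In all, 20 deposited tables cover 5 event types in 4 comparisons. Inclusion values are the authors' fraction from 0 to 1 per library, and their difference column is a deposited score, wild type minus expansion. Each p-value and FDR was computed by the authors and is quoted as deposited.

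Fractions were turned into percentages, and changes recomputed from group means lay within 0.05 points of the deposited differences. Events were matched by gene, start and end to GENCODE M21. The members and gene lists were chosen with earlier results of these data known, and the authors selected events on the same contrast, so expansion against wild type is described and not tested. Named genes are the members, the 3 events most like each, and every list gene with an event, except 1 that is not reported here. The 3 tissue tests of Josd2 were exact two-sided permutations with Benjamini-Hochberg adjustment. They treat all values as independent, although TA and myotubes share mice. Calculations were tested on simulated data. Depth is unknown. Alternatives were a stricter FDR or change, medians, 1 event per gene and leaving out libraries. The software was Python 3.11.15 with NumPy 2.4.6, and with matplotlib 3.10.9 for plots.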

Additional observations from a re-analysis of the deposited data

Results flagged for a closer look

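A retained intron of Trim28 (chr7:13029088-13029252, 165 bases), a gene of the ubiquitin list that encodes a TRIM family corepressor, moved in opposite directions in 2 tissues of 480/480 mice. In TA it read 12.4%, 22.3% and 15.2% in wild type and 8.4%, 7.2% and 1.1% in 480/480, a change of -11.1 points. In choroid plexus it read 12.6%, 16.7% and 10.1% in wild type and 31.5% and 19.0% in 480/480, a change of 12.1 points. Every 480/480 library lay below the wild-type libraries in TA and above them in choroid plexus. The event was flagged by this very pattern, so the pattern is no separate result. Over all listed events the groups did not overlap in 71.6% for TA and 80.0% for choroid plexus. These 2 tissues list 3 events in common, of which 1 moved in the same direction. The difference between the tissues was not tested.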

How the results depend on the processing

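All 10 changes kept their direction with group medians and in 59 of 59 cases with 1 library left out. That outcome was fixed in advance, because the groups of these events do not overlap. With group medians the changes moved by less than 1 SD. Leaving out 1 of 2 or 3 values cannot move a change beyond 1 SD on this scale, so only the ranges below are informative. Leaving out 1 library at a time, the Josd2 changes after the short first exon ranged from -75.4 to -46.5 (58-base) and -69.4 to -35.8 points (112-base) in TA, and from -78.9 to -55.4 and -71.9 to -50.5 in myotubes. After the long first exon they ranged from -13.8 to -11.3 and -13.3 to -10.5. The ranges were 38.0 to 56.4 for Huwe1, -49.8 to -32.1 for Fbxl12, 30.6 to 52.6 for Xaf1 in TA and -53.3 to -25.9 in choroid plexus. The Josd2 tissue differences ranged from 0 to 23.5 in wild type and 3.58 to 32.5 in 480/480. The difference of changes ranged from -12.1 to 22.0, and its sign turned at -12.1 and -1.53. With the authors' FDR at 0.01 or less, 5 of the 10 events remained, in 3 genes, and 1 event per gene and comparison, a choice made after the data were seen, left 6. At that FDR, events without overlap made up 87.1% in TA, 92.5% in +/480 myotubes and 91.5% in choroid plexus, the ubiquitin list kept 1 gene in TA, 1 in +/480 myotubes and 2 in choroid plexus, and the apoptosis list kept 0 in TA and 0 in choroid plexus. With changes of 20 points or more it kept 1 in TA, 5 in 480/480 myotubes and 2 in choroid plexus for ubiquitin. These cuts only remove events. No paired analysis was possible because values within a list have no replicate number. Without read counts, a value of 100% cannot be told from one that rests on few reads, and 2 or 3 libraries per group limit every mean.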
